A study of Mus musculus with 2 samples.

Results

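The tissue that surrounds growing oocytes was examined in 1 ovary section of a young C57BL6/J female mouse, mapped by Slide-seq, which captures messenger RNA from a frozen section on beads whose barcodes tell where each transcript came from. Bead counts were summed in square bins of 70 position units on a side, 5.58 times the median distance between neighbouring beads, and bins with at least 500 counts were kept. A kept bin was called an oocyte bin when 9 oocyte genes (Zp1, Zp2, Zp3, Gdf9, Bmp15, H1f8, Nlrp14, Ooep and Dppa3, called the rule genes here) together had at least 10 counts and made up at least 0.5% of its counts. The ring consists of the kept bins that are not oocyte bins but lie 1 or 2 bins from one, by the larger of the horizontal and vertical step. It held 407 of the 1306 kept bins of the young section and of the 2190 kept bins of the whole series, 187 at 1 step and 220 at 2 steps. The 84 oocyte bins formed 12 groups of adjoining bins, called oocyte patches 1 to 12. The ring was set against 611 distant bins, those 4 or more steps from any oocyte bin, while 204 bins at 3 steps were left between.

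The series compares ovary sections of young (2 months) and old (about 14 months) females of the same strain, with no other treatment or genotype given. One library per age was analysed here, the one labelled young replicate 3 and the one labelled old replicate 1. Per the labels' protocols, 4 sections of 10 µm came from 2 females for each age and places with several oocytes in one plane were chosen before capture, so the number of oocytes is not a sampled quantity. The ring and the distant bins come from 1 section of 1 animal and are not replicates. No test was therefore made, and each 95% interval below covers counting error only. The same rule applied to the old section gave 6 oocyte bins in 2 patches, 53 ring bins and 783 distant bins.

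A follicle is an oocyte enclosed by layers of granulosa cells, which feed it through gap junctions and convert androgen to oestrogen, and an outer coat of theca cells, which make that androgen. Oocytes secrete growth factors such as GDF9 and BMP15 that act on the nearest granulosa cells. As follicles grow, granulosa cells divide and come to make inhibin and activin, which are built from the subunits encoded by Inha, Inhba and Inhbb. After ovulation the follicle becomes a corpus luteum, which makes progesterone, and between follicles and corpora lutea lie steroid-forming interstitial cells, stroma, vessels and macrophages.

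**Figure D1:**
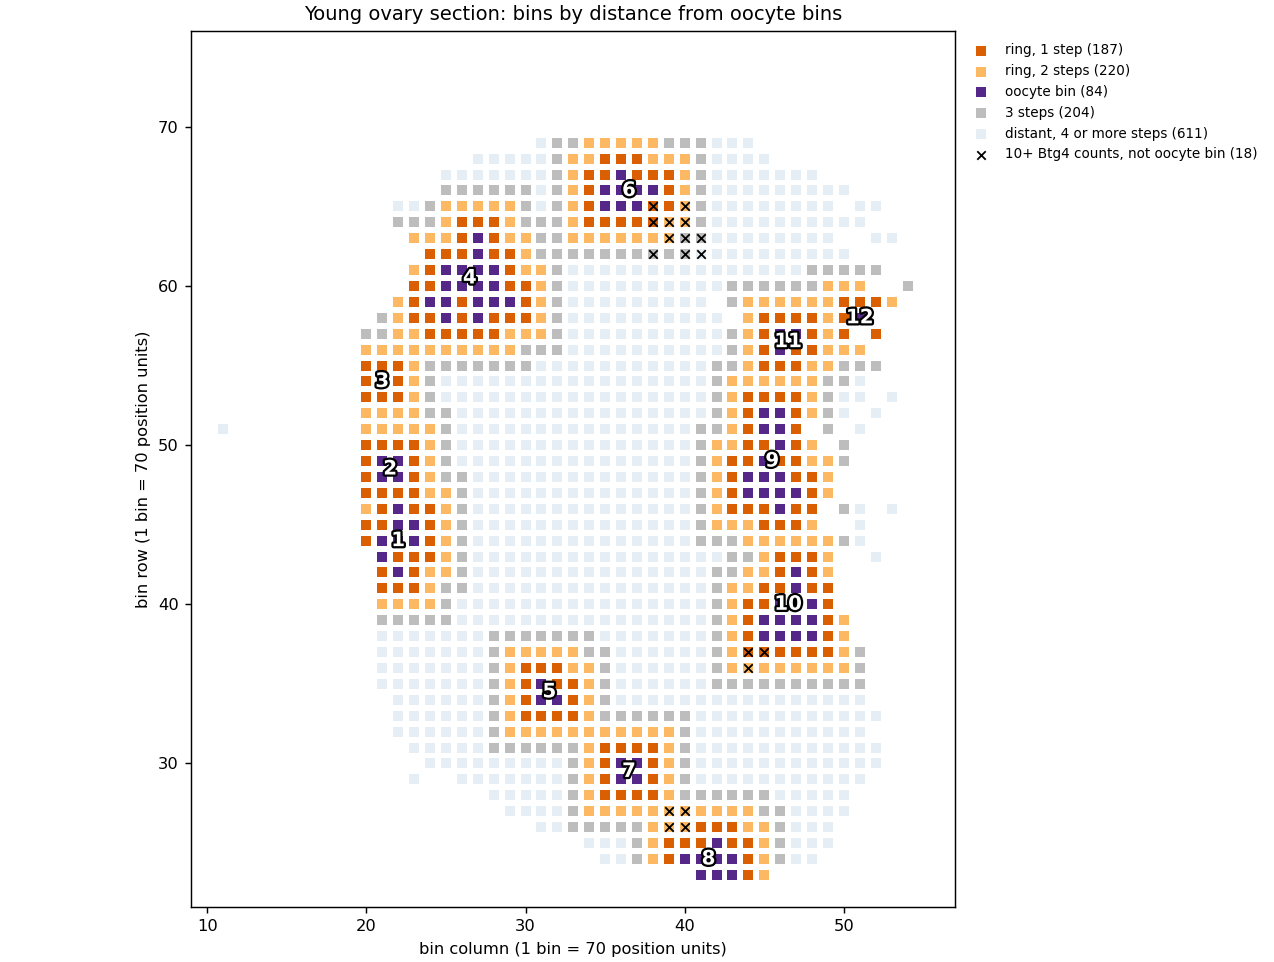
Map of the young section, with 1 square per kept bin and axes in bins of 70 position units. Ring bins 1 and 2 steps from an oocyte bin are dark and light orange, oocyte bins purple, bins at 3 steps grey and distant bins pale blue. Numbers mark the 12 oocyte patches, most of which lie towards the sides of the section, and crosses mark the 18 bins with at least 10 Btg4 counts that are not oocyte bins.

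Ring bins held 1651536 counts, 32.4% of those in kept bins, and the median bin had 3524 counts from 2114 genes. Distant bins held 2001233 counts, with medians of 2882 counts and 1713 genes, and oocyte bins were richer, with medians of 6461 counts and 3410 genes. Mitochondrial genes took 1.76% of ring counts and 2.01% of distant counts. The ring lay nearer the edge of the section than the distant bins did. Its bins were a median of 4 and at most 8 bins from the edge, against a median of 8 and at most 14 for distant bins, so position in the section moves together with distance from oocytes. A second contrast used the 349 distant bins that lie no deeper than the deepest ring bin, called the outer distant bins, which are a median of 3 bins from the edge. It was chosen after the data had been seen. Of the 107 named genes with an interval clear of 1, 32 had one across 1 in this second contrast and 2, Aldh1a1 and Col1a2, one on the other side.

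The ring was chosen by its distance from bins selected on the counts of the rule genes, so the levels of those genes are given as a description. They stood at 17385 CPM (each zone's summed counts scaled to a common total of 1e6) in oocyte bins, 1277 at 1 step, 376.8 at 2 steps, 273 at 3 steps and 201.9 CPM in distant bins. The ring's excess over the distant level was 3.37% of the excess in oocyte bins. Of the 407 ring bins, 136 had no rule-gene count and 37 had 10 or more, up to 31, but under 0.5% of their counts. Just inside the threshold were oocyte bins with 0.510%, 0.516% and 0.545% of rule-gene counts, and just outside were ring bins with 0.738%, 0.677% and 0.632%, which had 6, 6 and 8 such counts. The first of these oocyte bins, with 20 rule-gene counts, is the only one of patch 3.

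Ring sizes varied with the patches. Patches held 1 to 17 oocyte bins, with a median of 6, and 14 to 62 ring bins, with a median of 31.5. The ring of patch 12 was the smallest, with 16129 counts, and that of patch 4 the largest, with 360107. Where a ring bin lay near several patches it was given to the nearest, and 27 ring bins were within 2 steps of more than 1 patch.

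Of 9008 genes with at least 50 counts in ring and distant bins together, 165 (1.83%) had a ring over distant ratio of 2 or more and 81 (0.899%) a ratio of 0.5 or less. The median ratio of all tested genes was 1.03, and 55.3% of them were above 1. The 165 genes fell into 3 kinds by their level in the oocyte bins. In 81 the level in oocyte bins was at least 2 times that in the ring, so that it was graded outward from the oocyte. In 60, called ring-peak genes here, the oocyte bins were no higher than the ring, and 24 lay between. The name sets the ring against the oocyte bins only, since 11 of the 60 were higher at 3 steps than in the ring. Of the 81 graded genes 65 were higher at 1 step than at 2, whereas 31 of the 60 ring-peak genes were higher at 2 steps. Graded genes were picked by a high level in oocyte bins, which the bins at 1 step adjoin. The count of 65 is therefore in part set by that choice. Against the outer distant bins all 60 ring-peak genes were above 1, but 25 of them reached 2-fold. Of the 81 graded genes 48 reached it, and 46 of the 81 lower genes were at a ratio of 0.5 or less. The outer distant bins are part of the distant bins by which these genes were picked, and the ring counts are the same. The side of 1 on which a gene lies was therefore in part set in advance.

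The ring-peak genes included those for secreted proteins (Ccn2, Metrnl, Apoa1, Apoa4), collagens (Col11a1, Col9a2) and the receptor gene Ghr. Ccn2, which encodes connective tissue growth factor, a matrix-associated signalling protein, had 339.1 CPM in the ring and 107.9 in distant bins, a ratio of 3.14 (95% interval 2.68 to 3.69). Moving outward, Ccn2 had 36.3 CPM in oocyte bins, 303.5 at 1 step, 368.1 at 2, 270.4 at 3, 147.8 at 4 and 91.5 CPM at 5 steps. Its level was thus low in oocyte bins, highest at 2 steps and close to the distant level from 5 steps on. Against the outer distant bins the Ccn2 ratio was 2.63 (2.19 to 3.17).

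Rings of different patches did not share one Ccn2 level. The rings of patches 7 and 1 had 1109 and 630.9 CPM of Ccn2, those of patches 6, 9, 4, 12, 2, 10 and 8 between 409.6 and 130.7, and those of patches 11, 5 and 3 had 35.2, 18.3 and 10.3 CPM, below the distant level. Without the ring of patch 7 the Ccn2 ratio was 2.27.

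Nos2, which encodes inducible nitric oxide synthase, had the highest ratio of the ring-peak genes named by the size rule, 3.60 (2.42 to 5.48), at 61.2 CPM in the ring and 17.0 in distant bins on 101 and 34 counts. Nos2 had 60.7 CPM at 1 step, 61.5 at 2 and 76.9 at 3 steps, so its level was highest just outside the ring. Its ratio to the outer distant bins was 2.35, and that of Metrnl 2.14. Metrnl, which encodes the secreted protein meteorin-like, stood at 139.3 against 46.5 CPM, a ratio of 3.00 (2.35 to 3.85), and was above the distant level in the rings of 10 of 12 patches. Metrnl had 52.9 CPM in oocyte bins, 130.8 at 1 step, 146.1 at 2, 96.1 at 3 and 61.5 at 4 steps, a course like that of Ccn2 but flatter across patches, whose rings ranged from 18.3 to 288.2 CPM. Both collagen genes in the group are better known from cartilage. Col11a1, a chain of a thin fibril collagen, had a ratio of 2.86 (2.12 to 3.89) and Col9a2, a chain of a collagen on the surface of fibrils, one of 2.68 (2.09 to 3.46). Col9a2 reached 372 CPM in the ring of patch 12, on few counts, and 306.5 in that of patch 7. The ratio of Col9a2 was 1.73 against the outer distant bins, and that of Col11a1 2.11.

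**Figure D2:**
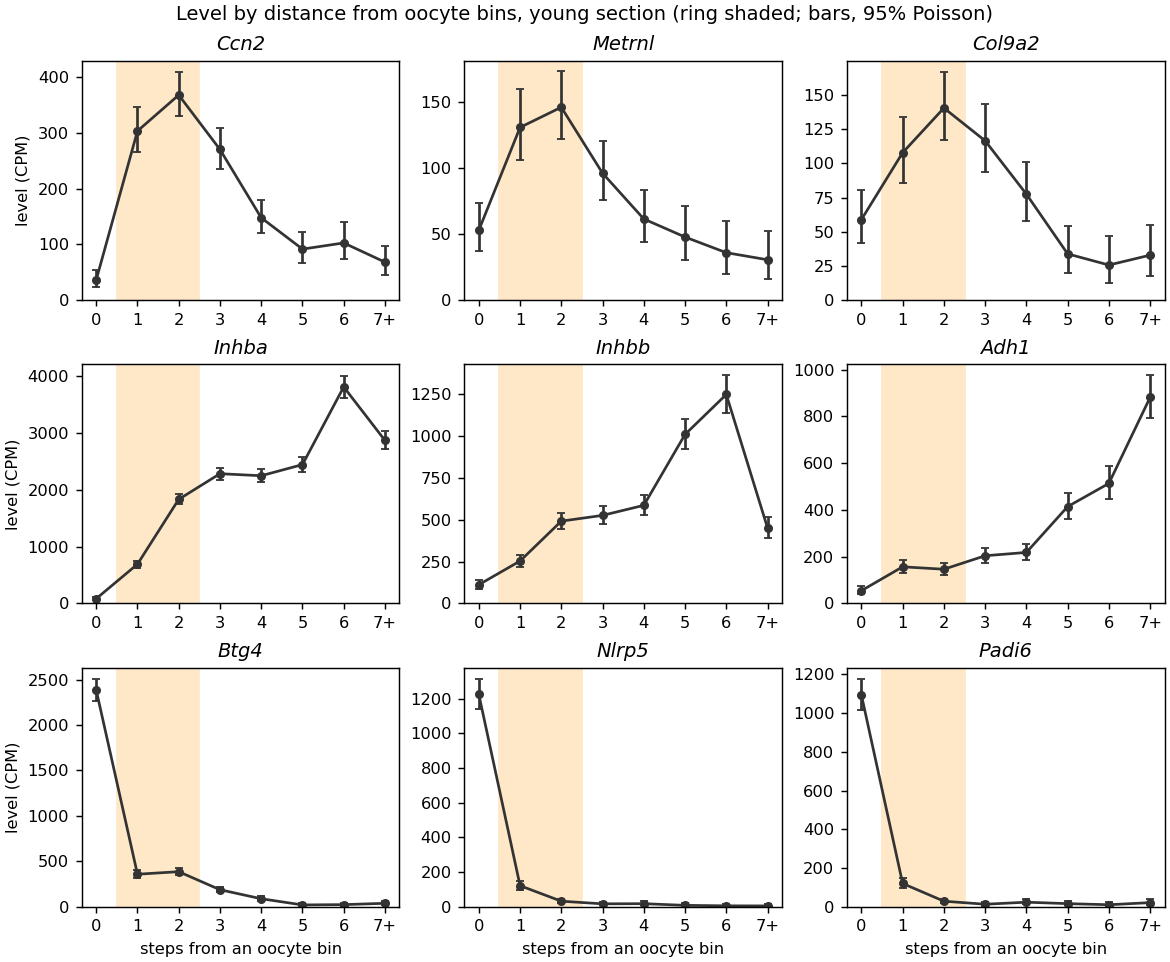
Level in CPM (y axes, starting at 0) of 9 genes in the young section by steps from the nearest oocyte bin (x axes; 0 marks oocyte bins, 7+ bins 7 or more steps away), with the ring shaded and exact 95% Poisson bars for counting error. Ccn2, Metrnl and Col9a2 are highest at 2 steps, Inhba, Inhbb and Adh1 are higher at 6 steps than in the ring, and Nlrp5 and Padi6 fall off within the ring while Btg4 has the same height at 1 and 2 steps.

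Hpgd, the enzyme that inactivates prostaglandins, had 119.3 CPM in the ring against 42.5 in distant bins, a ratio of 2.81 (2.17 to 3.67). Ghr, the growth hormone receptor gene, had a ratio of 2.72 (2.06 to 3.63). With the outer distant bins in place of all, these stood at 2.22 and 2.23. Others were Apoa1 at 2.46 and Apoa4 at 2.43, both apolipoprotein genes, the amino acid transporter gene Slc38a5 at 2.45, Ank3, which encodes the membrane anchor ankyrin-G, at 2.42, the actin-bundling protein gene Fscn1 at 2.37, Cables1 at 2.33 and Arhgef28 at 2.00. Apoa1 and Slc38a5 were, like Nos2, higher at 3 steps, at 93.6 and 57.7 CPM, than in the ring, at 75.1 and 52.7 CPM. Several of them rested on 1 patch. Without the ring of patch 7 the ratios were 1.45 for Slc38a5, 1.74 for Apoa1, 1.83 for Apoa4, 1.82 for Cables1, 1.89 for Fscn1 and 1.99 for Ank3, and 112 genes in all were at 2-fold or more. Against the outer distant bins Slc38a5, Apoa1, Apoa4, Fscn1, Ank3, Cables1 and Arhgef28 lay between 1.48 and 1.81.

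Defining granulosa genes were sparse, so the label of a follicle layer could be checked only in part. Amh had 7 counts in the ring and 3 in distant bins, and Fshr, the receptor for follicle-stimulating hormone, had 17 and 23. The granulosa list of 16 genes, 13 of them measured with at least 50 counts, had 10807 CPM in the ring against 12832 in distant bins, a ratio of 0.842 (0.826 to 0.859). The median of its members was 0.890, against 1.03 for all genes, and the list ratio to the outer distant bins was 0.666 (0.653 to 0.680). Kctd14 alone was at least 2-fold higher, and Inhba and Inhbb were at least 2-fold lower. In bins that mix cells, a lower level may mean fewer cells of a type or less RNA per cell, and these cannot be told apart. No name of a cell type was therefore given to the ring.

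Within that list the members went opposite ways. Kctd14 had 709.6 CPM in the ring and 316.3 in distant bins, a ratio of 2.24 (2.04 to 2.48), and was graded from the oocyte, with 1866 CPM in oocyte bins, 990.1 at 1 step and 481.2 at 2 steps. Its ratio to the outer distant bins was 1.46 (1.32 to 1.62). Amhr2, the receptor gene for anti-Müllerian hormone, had a ratio of 1.53 (1.25 to 1.87), Bex4 of 1.30 (1.11 to 1.53) and the protease inhibitor gene Serpine2 of 1.19 (1.12 to 1.26). Bex4 was at 1.07 (0.896 to 1.28) against the outer distant bins. Foxl2, a transcription factor gene that keeps granulosa identity, was at 1.04 (0.855 to 1.26) and Nr5a2 at 1.00 (0.890 to 1.13). The gap junction gene Gja1 had 0.891 (0.862 to 0.920), Fst, the activin-binding follistatin gene, 0.868 (0.812 to 0.927) and the oestrogen-forming enzyme genes Cyp19a1 and Hsd17b1 0.823 (0.654 to 1.03) and 0.757 (0.648 to 0.883).

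Both activin subunit genes were lower near the oocyte. Inhba had 1318 CPM in the ring and 2729 in distant bins, a ratio of 0.483 (0.459 to 0.507), and Inhbb 385.1 against 793.5 CPM, a ratio of 0.485 (0.442 to 0.532). Inha, the inhibin alpha subunit gene, was nearer to the distant level, at 1442 against 1665 CPM and 0.866 (0.821 to 0.913). From the oocyte outward Inhba had 83.1 CPM in oocyte bins, 689.3 at 1 step, 1829 at 2, 2280 at 3, 2244 at 4, 2440 at 5, 3805 at 6 and 2865 CPM at 7 or more steps. The contrast was as large within the outer tissue, where the ratio was 0.388 (0.368 to 0.409) for Inhba and 0.338 (0.307 to 0.372) for Inhbb.

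The ring total of Inhba came from few patches. The rings of patches 2, 3 and 5 had 7799, 6643 and 3950 CPM of Inhba, all above the distant level, and the other 9 lay between 0 and 785.9. Inhbb followed in part, with 1775 and 3168 CPM in the rings of patches 2 and 3, 394.1 in that of patch 5 and 67.6 to 156.8 in the other 9. In the same 3 rings Ccn2 had 177.5, 10.3 and 18.3 CPM, and in the ring of patch 7, where Ccn2 was highest, Inhba had 61.3 CPM. The rings of patches 7 and 1 on the one hand and those of patches 2, 3 and 5 on the other thus held different leading genes. Patch 3 rests on the oocyte bin nearest the threshold. Without patch 2 the Inhba ratio was 0.355, and without patch 3 the Inhbb ratio was 0.265.

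**Figure D3:**
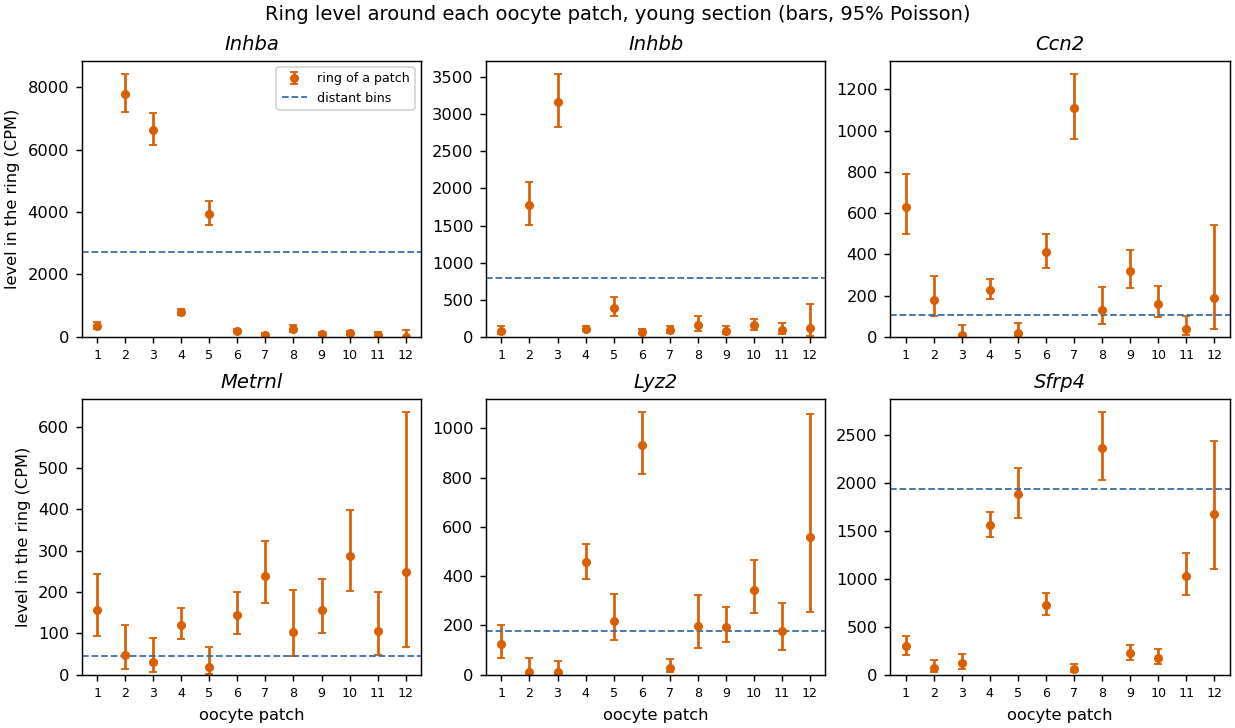
Ring level in CPM (y axes, starting at 0) of 6 genes around each of the 12 oocyte patches (x axes), with exact 95% Poisson bars, and the distant level as a dashed line. Inhba and Inhbb are high in the rings of patches 2 and 3 (Inhba also in that of patch 5), Ccn2 is highest in the ring of patch 7 and Lyz2 in that of patch 6, and Metrnl lies above the distant level in 10 of 12 rings.

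Genes of signalling between oocyte and granulosa cells were at the distant level as a group. The list had 2947 CPM in the ring against 2949 in distant bins, a ratio of 0.999 (0.962 to 1.04). Of its 22 measured members 11 were above 1, against 55.3% of all tested genes. The list ratio to the outer distant bins was 0.914 (0.876 to 0.954). Its highest members were Slc38a3, an amino acid transporter gene, at 2.06 (1.31 to 3.26), the oestrogen receptor beta gene Esr2 at 1.85 (1.44 to 2.40) and the TGF-beta mediator gene Smad3 at 1.29 (0.931 to 1.80). The Slc38a3 ratio was 1.40 (0.873 to 2.29) against the outer distant bins. The lowest were Nppc, which encodes the natriuretic peptide that holds oocytes in meiotic arrest, at 0.720 (0.573 to 0.902), Igfbp5, which binds insulin-like growth factors, at 0.734 (0.604 to 0.890) and the receptor gene Tgfbr1 at 0.785 (0.659 to 0.933). The BMP receptor genes Bmpr1a and Bmpr2 had 0.994 and 1.04. The highest ring level of Nppc, 343.2 CPM, was around patch 2, where Inhba was highest too.

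Proliferation genes were higher in the ring than in all distant bins and stood near the level of the outer ones. The list had 2253 CPM in the ring against 1690 in distant bins, a ratio of 1.33 (1.27 to 1.40). Above 1 were 21 of 24 measured members, against 55.3% of all tested genes, and 1 reached 2-fold, against 1.83% of all. That member was Ccnb1, a mitotic cyclin gene that oocytes also store, at 2.18 (1.55 to 3.09), with 391.3 CPM in oocyte bins. Ube2c had 1.99 (1.38 to 2.88), Ccnb2 1.94 (1.41 to 2.67), the helicase subunit gene Mcm2 1.52 (1.35 to 1.71) and H2az1 0.795 (0.686 to 0.920). The list stood at 2220 CPM in the outer distant bins, so the ratio there was 1.02 (0.965 to 1.07), and those of Ccnb1, Ube2c and Ccnb2 were 1.38 (0.976 to 1.99), 1.36 (0.930 to 2.03) and 1.25 (0.900 to 1.74). The list ratio was 1.18 without the ring of patch 7.

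Glycolysis genes had a ratio of 1.17 (1.12 to 1.21), and Ldhb supplied 2043 of their 4994 ring counts. Ldhb, a lactate dehydrogenase gene very abundant in oocytes, had 5934 CPM in oocyte bins, 1474 at 1 step, 1044 at 2 steps and 727.1 CPM in distant bins, a ring ratio of 1.70 (1.59 to 1.82). Of the 12 measured members 6 were above 1, against 55.3% of all tested genes. Hk2 stood at 2.08 (1.25 to 3.56) on 43 and 25 counts and Hk1 at 0.673 (0.457 to 0.981), both hexokinase genes. The Hk1 ratio to the outer distant bins was 0.767 (0.491 to 1.20). The basement membrane list had 1763 CPM in the ring and 1766 in distant bins (0.999, 0.950 to 1.05), with Col4a3 at 2.00 (1.16 to 3.52) and Lamb2 at 0.881 (0.808 to 0.961).

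The list of theca and hedgehog genes stood near the distant level, at 773.2 against 782.5 CPM, a ratio of 0.988 (0.917 to 1.07). Cyp17a1, the androgen-forming enzyme gene, had 141.1 CPM in the ring and 150.9 in distant bins, a ratio of 0.935 (0.785 to 1.11), and its highest ring level was 645.8 CPM around patch 3. The luteinizing hormone receptor gene Lhcgr had 0.827 (0.730 to 0.936), and Smo, which transmits hedgehog signals, 1.21 (1.03 to 1.42). In the outer tissue these were 1.10 (0.943 to 1.28) for Lhcgr and 1.12 (0.934 to 1.34) for Smo. Of the 12 listed genes 6 were measured, among them the hedgehog genes Ihh, Dhh, Ptch1 and Smo. The theca hormone gene Insl3 had 3 counts in the ring and 8 in distant bins.

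Luteal and steroid-forming genes were lower in the ring. The luteal list had 2392 CPM in the ring against 4533 in distant bins, a ratio of 0.528 (0.508 to 0.548). None of its 7 measured members was above 1, against 55.3% of all tested genes. Sfrp4, a secreted Wnt antagonist gene, had 822.9 against 1933 CPM, a ratio of 0.426 (0.400 to 0.453). By patch, Sfrp4 had 2365 CPM in the ring of patch 8, 1879 around patch 5, 1674 around patch 12 and 1561 around patch 4, and 61.3 to 1032 CPM around the others. The ring of patch 8 alone was above the distant level. Onecut2, a transcription factor gene, stood at 0.450 (0.352 to 0.571) and, leaving out the ring of patch 4, at 0.254, while the prostaglandin F receptor gene Ptgfr had 0.540 (0.491 to 0.593). The steroidogenesis list had 15954 against 23981 CPM, a ratio of 0.665 (0.655 to 0.675). None of its 9 measured members was above 1, against 55.3% of all tested genes. Among them were Hsd3b1 at 0.686 (0.674 to 0.699) and Cyp11a1, which starts steroid synthesis from cholesterol, at 0.604 (0.585 to 0.623). Cholesterol synthesis genes had 0.746 (0.698 to 0.796). In the outer tissue these 3 lists stood at 0.650, 0.836 and 0.857.

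Among the 12 lowest genes, some kept their ratio in the outer tissue and others did not. Sfrp2, like Sfrp4 a Wnt antagonist gene, had 0.348 (0.232 to 0.510), the lipid droplet coat gene Plin4 0.377 (0.245 to 0.565), the mechanosensitive channel gene Piezo2 0.399 (0.306 to 0.516), Sema3d, a secreted guidance protein gene, 0.410 (0.322 to 0.518) and Ltbp1, which binds latent TGF-beta, 0.443 (0.386 to 0.507). Against the outer distant bins the ratios of Sfrp2, Plin4, Piezo2, Sema3d and Ltbp1 lay between 0.379 and 0.468. Acsl4, a fatty acid activating enzyme gene, and Zfp398 had 0.450 and 0.452, and 0.506 and 0.508 against the outer distant bins. In contrast Adh1, an alcohol dehydrogenase gene of retinol metabolism, had the lowest ratio of the named genes, 0.324 (0.280 to 0.373), at 150.8 against 465.7 CPM, but 0.806 (0.669 to 0.971) against the outer distant bins. Its level increased from 156.5 CPM at 1 step to 881.2 CPM at 7 or more steps. The globin genes Hbb-bs and Hba-a2, which mark red blood cells, had 0.438 and 0.416, and 0.801 (0.693 to 0.927) and 0.893 (0.637 to 1.25) against the outer distant bins. Their highest ring levels were around patch 5.

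Other tissue lists were compared to see what else the ring holds. The interstitial list, dominated by the retinal dehydrogenase gene Aldh1a1, had a ratio of 0.718 (0.701 to 0.735), which turned to 1.10 (1.07 to 1.14) against the outer distant bins. Aldh1a1 itself turned in the same way, with 0.717 (0.699 to 0.735) and 1.11 (1.08 to 1.15). Stromal genes stood at 0.883 (0.854 to 0.912), with Col1a2 at 1.07 (1.01 to 1.13) and Postn at 0.442 (0.291 to 0.657). Smooth muscle genes stood at 0.855 (0.813 to 0.899), with none of 10 members above 1, against 55.3% of all tested genes. Col1a2 turned to 0.874 (0.820 to 0.932) against the outer distant bins. Blood endothelium genes had 0.837 (0.749 to 0.935), and 0.973 (0.853 to 1.11) against the outer distant bins, though 395.2 CPM at 1 step was close to the distant 392.8. Lymphatic genes had 0.628 (0.488 to 0.805) on 99 and 191 counts, and 1.41 (0.993 to 2.03) against the outer distant bins. The surface epithelium list was higher, at 165.3 against 70.5 CPM, a ratio of 2.35 (1.91 to 2.90), with Lgals7 at 2.47 (1.54 to 4.03), Krt8 at 1.97 (1.27 to 3.10) and the other 7 genes too sparse to be measured. Against the outer distant bins the surface epithelium ratio was 1.53 (1.23 to 1.90), that of Lgals7 1.59 (0.980 to 2.66) and that of Krt8 1.48 (0.918 to 2.43).

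**Figure D4:**
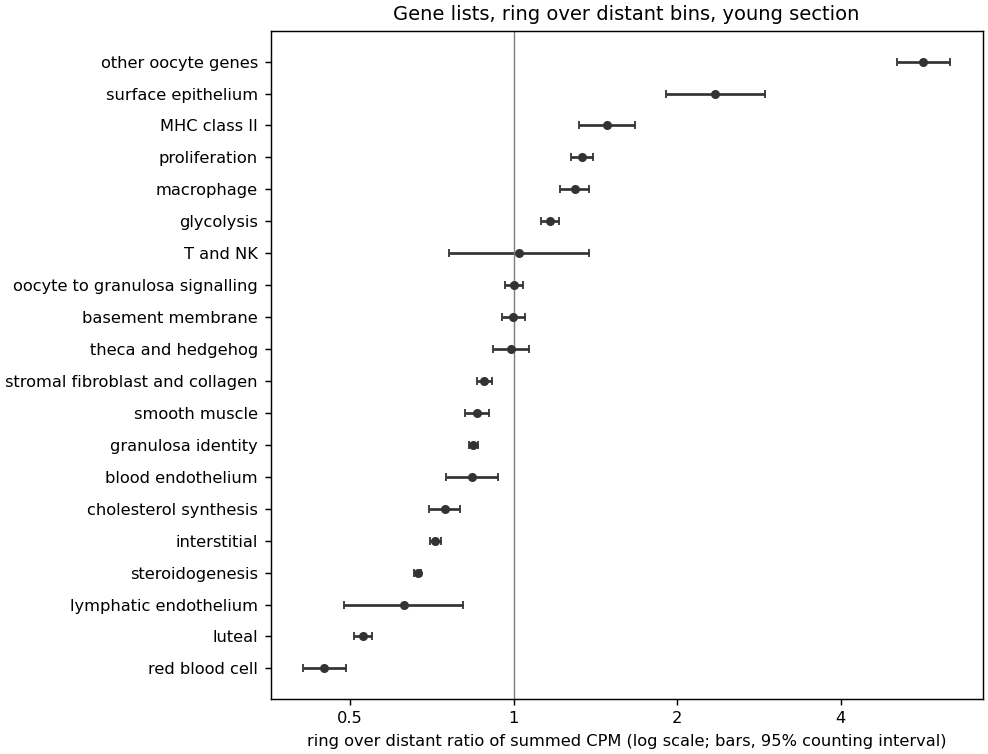
Ring over distant ratio of summed CPM (x axis, log scale) for the 20 gene lists, with 95% counting intervals. Oocyte, surface epithelium and MHC class II genes are highest, and red blood cell, luteal and lymphatic genes are lowest.

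Macrophage and MHC class II genes were higher in the ring, on the strength of a few genes and patches. The macrophage list had 1278 against 986.4 CPM, a ratio of 1.30 (1.22 to 1.38). Above 1 were 7 of its 14 members, against 55.3% of all tested genes. Lyz2, the lysozyme gene of myeloid cells, had 1.86 (1.62 to 2.13) and the lysosomal protease gene Ctss 1.74 (1.53 to 1.97), while C1qa had 0.939 (0.799 to 1.10), Csf1r 0.900 (0.609 to 1.32) and Aif1 0.479 (0.308 to 0.729). The ring of patch 6 had 933.2 CPM of Lyz2, the highest of the 12, and those of patches 2 and 3 had 11.8 and 10.3. Without the ring of patch 6 the list ratio was 1.00 and the Lyz2 ratio 1.29. MHC class II genes, which present antigen, had 377.8 against 254.8 CPM, a ratio of 1.48 (1.32 to 1.67). All 4 measured members were above 1, against 55.3% of all tested genes, and 6 of 12 patches were above the distant level.

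Oocyte genes outside the rule were the highest list. Enough counts to be measured were found for 12 of its 35 genes, each with a ratio above 2, and the other 23 were sparser and gave no ratio. The whole list had 1060 CPM in the ring, 186.9 in distant bins and 12317 in oocyte bins, a ratio of 5.67 (5.07 to 6.36). The list shares its cells with the rule genes, so this direction was set by the rule. The bins at 1 step adjoin oocyte bins, so a fall from 1 to 2 steps is in part set by the rule too. The rule genes themselves fell from 1277 to 376.8 CPM. The slopes of single genes inside the ring differed. Nlrp5 and Padi6, both genes of the subcortical maternal complex of the egg, had 121.4 and 120.1 CPM at 1 step but 31.9 and 28.6 at 2 steps. Btg4, an adaptor gene for the decay of maternal messenger RNA, had 357.5 CPM at 1 step and 385.6 at 2 steps. C86187 had 659.6 and 426.3, Khdc1b 151.1 and 79.1, Eif4e1b, a cap-binding protein gene of oocytes, 126.8 and 57.1, and Zbed3 120.1 and 96.7 CPM. These 7 genes had ring over distant ratios from 3.76 for Zbed3 to 8.24 for C86187, with Btg4 at 7.86 (6.32 to 9.86). Other oocyte genes lay on both sides of that range, with Bcl2l10 at 9.96 (4.97 to 22.6) and Lhx8, Npm2 and Tle6 at 2.58, 2.56 and 2.23.

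The flat course of Btg4 came from few bins, picked out here after its values were seen. Outside the oocyte bins, 18 bins had 10 or more Btg4 counts: 13 in the ring, 4 at 3 steps and 1 at 4 steps. They lay together in 3 groups, 11 bins beside patch 6, 4 between patches 7 and 8, and 3 beside patch 10. The 13 ring bins held 363 of the 616 ring counts of Btg4, or 58.9%, and 92 rule-gene counts. That is 3.95 Btg4 counts for each rule-gene count, against 0.211 in the other ring bins and 0.137 in the oocyte bins. By patch, Btg4 had 2378 CPM in the ring of patch 8, 736.6 around patch 10 and 734.7 around patch 6, and 11.8 to 200.6 around the other 9. Without the 18 bins the Btg4 ratio was 3.97.

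**Figure D5:**
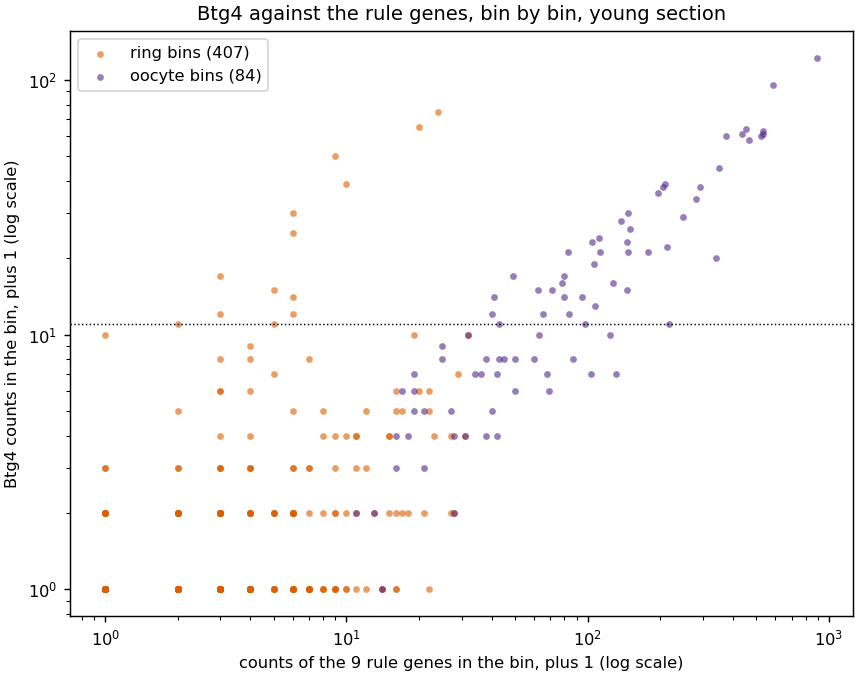
Btg4 counts (y axis) against counts of the 9 rule genes (x axis) in each ring bin and oocyte bin of the young section, both plus 1 on log scales, with a dotted line at 10 Btg4 counts. In oocyte bins both increase together, while 13 ring bins lie above the line with few rule-gene counts.

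In these 18 bins other oocyte genes parted along the same line. Zona pellucida genes were nearly absent, with 5 counts of Zp1, Zp2 and Zp3 in all, 60.8 CPM against 4771 in oocyte bins. These 3 are rule genes, and so are Nlrp14, Gdf9 and Dppa3 below. The bins compared were called oocyte bins or not by their rule-gene counts, so low values of rule genes here are in part set by the rule. Of 43 oocyte genes with at least 20 counts in both sets of bins together, 23 were at 0.1 times the oocyte-bin level or less and 10 at or above it. Without the rule genes these were 16 and 10 of 34. Oocyte genes outside the rule share their cells with the rule genes, so their low values are in part set by the rule too. The 10 include Btg4, whose place was set in advance because the bins were chosen by it. They also include Obox5 at 1.42 (0.900 to 2.17), Oog3 at 1.18 (0.718 to 1.85) and Oog1 at 1.15 (0.660 to 1.89), with intervals across 1. The share of all genes at these levels is not given here, so the counts are a description only. At the low end outside the rule, Padi6 had a ratio to oocyte bins of 0.0222 (0.00269 to 0.0806) and Nlrp5 one of 0.0496 (0.0161 to 0.116). Of the rule genes, Zp2 had 0.00449 (0.000114 to 0.0251), Nlrp14 0.0252 (0.0130 to 0.0440) and Gdf9 0.0332 (0.00401 to 0.121). At the high end Omt2a stood at 547.3 against 111.8 CPM, a ratio of 4.90 (3.30 to 7.19), Omt2b at 3.65 (2.43 to 5.39), Oosp3 at 2.62 (1.28 to 4.99), Bcl2l10, a gene of the BCL2 family of cell death regulators, at 1.93 (1.39 to 2.63) and Rfpl4 at 1.68 (1.08 to 2.54). Btg4 itself, by which the bins were chosen, had 5752 against 2384 CPM. C86187 had a ratio of 0.943 (0.857 to 1.03), and Dppa3 stood between, at 0.595 (0.459 to 0.760).

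Among these bins, macrophage genes were highest beside patches 6 and 10. The macrophage list had 4653 CPM in the 13 ring bins, 1151 in the other ring bins and 986.4 in distant bins, and Lyz2 had 1714, 277.6 and 177.4 CPM. By group, the macrophage list had 4917 CPM beside patch 6, 5078 beside patch 10 and 1384 between patches 7 and 8. Btg4 was highest between patches 7 and 8, at 8570 CPM. MHC class II genes had 336 CPM in the 13 ring bins and 379.4 in the other ring bins. Without the 18 bins the macrophage list had a ring over distant ratio of 1.17. The part of these bins in the macrophage result beyond that value was not tested.

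Promoters are shown for a pair of genes that stayed high in the Btg4-rich bins and for 1 zona gene, itself a rule gene, that was nearly absent there, since oocyte factors of the bHLH type such as FIGLA are known to act on zona genes through E-boxes. Each is the entry of the gene in a RefSeq table of build GRCm38.p6 and runs from 250 bases before to 50 after a transcript start, 5′ to 3′ on the gene's strand. For Btg4, annotated at chr9:51102147-51119924, and Omt2a, at chr9:78311972-78314797, that start lies inside the gene. Capitals mark the E-box form CAGGTG on either strand, where CACCTG is its reverse complement. Other forms, such as the cacgtg in the Zp3 sequence, are not marked, and which form FIGLA acts on was not tested. Btg4 lies at chr9:51115751-51116050 on the plus strand, Omt2a at chr9:78313999-78314298 on the minus strand and Zp3 at chr5:135979855-135980154 on the plus strand.
Btg4: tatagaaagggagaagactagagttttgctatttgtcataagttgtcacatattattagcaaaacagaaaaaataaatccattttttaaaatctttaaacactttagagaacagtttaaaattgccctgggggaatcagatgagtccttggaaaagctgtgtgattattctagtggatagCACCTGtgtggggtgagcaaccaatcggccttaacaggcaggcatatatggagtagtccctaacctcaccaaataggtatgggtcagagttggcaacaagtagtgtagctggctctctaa
Omt2a: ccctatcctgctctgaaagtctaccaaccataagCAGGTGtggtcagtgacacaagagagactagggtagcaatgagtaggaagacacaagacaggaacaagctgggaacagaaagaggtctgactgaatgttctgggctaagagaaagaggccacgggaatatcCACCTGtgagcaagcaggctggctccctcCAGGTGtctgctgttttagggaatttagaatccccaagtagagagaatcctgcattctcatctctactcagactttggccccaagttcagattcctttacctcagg
Zp3: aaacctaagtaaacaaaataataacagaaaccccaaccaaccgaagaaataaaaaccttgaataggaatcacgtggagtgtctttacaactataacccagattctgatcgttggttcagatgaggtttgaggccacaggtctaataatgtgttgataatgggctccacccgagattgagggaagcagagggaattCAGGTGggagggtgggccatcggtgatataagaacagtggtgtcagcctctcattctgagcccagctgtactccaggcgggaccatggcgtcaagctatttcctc
The marked form begins 70 bases before the start in Btg4, 216, 85 and 56 before it in Omt2a and 55 before it in Zp3. It occurs in 20.2% of the 32851 promoters of the table. Of the 44 rule and listed oocyte genes 34 had an entry, and 18 of these (52.9%) hold it in any of their entries. The first share is by promoter and the second by gene, so they are not alike. It was present in 5 of the 8 with an entry that were at or above the oocyte-bin level in the Btg4-rich bins and in 11 of the 19 at 0.1 times that level or less. Btg4, by which the bins were chosen, is among the 8. The motif was chosen after the values were seen, and a match is a description of the letters only.

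The old section gave the same rule few bins, and its values stand beside the young ones without a test. Its 53 ring bins held 120468 counts, and 42 rule-gene counts lay in them against 334 in its 6 oocyte bins. Sfrp4 had 672.4 CPM in the old ring against 1958 in old distant bins, a ratio of 0.344 (0.272 to 0.428), and Ltbp1, Plin4 and Sema3d had 0.311, 0.260 and 0.289. Of the 12 lowest genes of the young section, 6 had an old interval below 1, the others being Acsl4 at 0.508 (0.341 to 0.729) and Onecut2, on 1 ring count. Adh1, the lowest in the young section, had 0.835 (0.376 to 1.62), Sfrp2 0.944 (0.189 to 2.91), Piezo2 0.666 (0.178 to 1.76) and Zfp398 0.324 (0.0387 to 1.20). The globin genes Hbb-bs and Hba-a2 were above 1, at 1.39 (1.06 to 1.80) and 2.08 (1.24 to 3.33). Kctd14 had 564.5 against 270.3 CPM, a ratio of 2.09 (1.60 to 2.69). Of the 14 ring-peak genes named by size, 5 had an old interval above 1. Hpgd had 2.88 (1.25 to 5.90), Ank3 3.18 (1.37 to 6.56), Cables1 3.69 (1.66 to 7.42) and Apoa4 4.30 (2.53 to 7.003), each on 21 ring counts or fewer, and Slc38a5 had 15 counts in the old ring and 1 in old distant bins. Ccn2 had 1.32 (0.804 to 2.06), Metrnl 1.30 (0.767 to 2.07), Apoa1 1.14 (0.742 to 1.69), Ghr 0.586 (0.0693 to 2.21) and Nos2 0.944 (0.0227 to 5.98). The share of all genes with an old interval above or below 1 is not given here. The counts of 5 of 14 and 6 of 12 therefore do not measure agreement between the sections. Inhbb was higher in the old ring, at 298.8 against 70.4 CPM, a ratio of 4.25 (2.86 to 6.15), and Inhba had 1.75 (0.978 to 2.94), where both were below 1 in the young section. The granulosa list had 1.81 (1.67 to 1.97) and the proliferation list 1.72 (1.52 to 1.94). The old distant level of Inhba was 75.8 CPM, against 2729 CPM in the young section, and whether the ages differ was not tested because each has 1 library.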

How the data were processed

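The authors deposited, for each section, a table of whole-number counts per gene and bead, not normalised per the file headers, and the bead positions, which carry no length unit. The build was mm10 per the submitters' processing notes; the aligner and annotation were not given in the sources used here, nor was it stated if a count is a read or a molecule. No column belonged to another sample. The young section had 21403 beads with counts (5158314 in all, at least 10 per bead, median 153). Of its 21091 gene names, 18061 matched a RefSeq symbol or synonym (GRCm38.p6).

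Counts were summed per bin and zone and scaled to CPM. Ratios have exact conditional binomial (Clopper-Pearson) and levels exact Poisson 95% intervals, which cover counting error only and no spread between animals or sections. Depth sets the precision: the 53 ring bins of the old section allow wide intervals. The genes named had at least 100 counts in ring and distant bins together and 50 CPM in one of them, without the 9 rule genes, clone-named and predicted genes, and ribosomal protein and mitochondrial genes. They were the 14 highest ratios among ring-peak genes, the 8 highest among graded genes, the 12 lowest, the ring-peak genes most and least graded between 1 and 2 steps, and of each of the 20 lists the 3 highest, the 3 lowest and the 2 most abundant members with at least 50 counts; other members are named to complete a group, and genes of the Btg4-rich bins were chosen after their values were seen. 1 gene that this rule names is not reported here. The members and the lists were chosen with earlier results of these data known. Steps were tested on simulated data. Alternatives were other ring, distant, bin, oocyte-bin and count settings, equal bin weights, other totals and leaving out each patch's ring; leaving out the Btg4-rich bins and the outer distant bins were chosen after seeing the data. Python 3.11.15, numpy 2.4.6, scipy 1.17.1, pandas 2.3.3 and matplotlib 3.10.9 were used.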

Additional observations from a re-analysis of the deposited data

Results flagged for a closer look

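Of 165 named genes and lists compared between the sections, 16 had a counting interval on opposite sides of 1 in the old and the young section. Each age had 1 section, so this difference was not tested. The follicle genes were above 1 in the old ring and below 1 in the young ring: the granulosa list had a ring over distant ratio of 1.81 (old) and 0.842 (young), Gja1 had 2.47 and 0.891, Inha 2.70 and 0.866, Inhbb 4.25 and 0.485, and Nppc, on 3 old ring counts, 7.28 and 0.720. Of vessel and blood genes, the red blood cell list had 1.53 (old) and 0.448 (young), Hba-a1 1.88 and 0.480, Hbb-bs 1.39 and 0.438, Hba-a2 2.08 and 0.416, and the blood endothelium list 1.36 and 0.837. The stromal fibroblast and collagen list had 1.26 (old) and 0.883 (young), smooth muscle 1.64 and 0.855, interstitial 1.26 and 0.718, Aldh1a1 1.26 and 0.717, and Nr5a1 2.05 and 0.780. Glycolysis alone went the other way, with 0.721 (old) and 1.17 (young). Ldhb, very abundant in oocytes, supplied 2043 of the 4994 young ring counts of that list and 1455 of its 5194 distant counts. The median young ratio of its 12 measured members was 0.979, against 1.03 for all tested genes. The old ring has 2 oocyte patches and the young ring 12, and the young interstitial, stromal, blood endothelium, Aldh1a1, Nr5a1, Gja1 and Inha ratios changed side under other settings. Against the distant bins no deeper in the section than the ring, the young ratio was 1.11 (1.08 to 1.15) for Aldh1a1, 1.05 (0.818 to 1.36) for Nr5a1, 0.911 (0.673 to 1.24) for Hba-a1, 0.893 (0.637 to 1.25) for Hba-a2 and 0.973 (0.853 to 1.11) for the blood endothelium list.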

How the results depend on the processing

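Leaving out the ring of each patch in turn, the count of genes at 2-fold or more was 112 to 190 and of genes at 0.5 or less 55 to 110. The list ratios were 0.757 to 0.917 for granulosa, 1.18 to 1.41 for proliferation, 0.897 to 1.03 for theca and hedgehog and 0.621 to 0.721 for steroidogenesis genes. With ring bins of at most 2 rule-gene counts, 94 genes were at 2-fold or more. The ratios of the granulosa, proliferation, theca-hedgehog and steroidogenesis lists were then 0.968, 1.27, 1.07 and 0.701. At 1 step alone 165 genes were at 0.5 or less, with granulosa at 0.671, steroidogenesis at 0.638 and blood endothelium turned to 1.01, and at 2 steps alone granulosa was at 0.982 and steroidogenesis at 0.688. With distant bins 6 or more steps away 273 genes were at 2-fold or more, the 4 lists stood at 0.783, 1.59, 0.907 and 0.574, and stromal genes turned to 1.02. With bins of 42 units 162 genes were at 0.5 or less, the 4 lists stood at 0.650, 1.21, 0.916 and 0.655, and stromal and blood endothelium genes turned to 1.01 and 1.03. With oocyte bins of at least 20 counts and 1% the 4 lists stood at 0.710, 1.27, 0.823 and 0.637. Shifting the grid gave 1.20 for proliferation and 0.706 for steroidogenesis, and equal bin weights 0.941 for granulosa and 0.699 for steroidogenesis. A minimum of 20 counts per gene gave 403 genes higher and 201 lower, and one of 200 counts 28 and 23. The number of genes tested also changed with the minimum, so these counts are not shares of one set of genes. Against distant bins no deeper in the section than the ring, 92 genes were higher and 47 lower, granulosa was at 0.666, proliferation at 1.02 and steroidogenesis at 0.836, and interstitial and lymphatic genes turned to 1.10 and 1.41. The causes of these changes were not tested. Of 1740 ratios of the 145 named genes under the settings other than leaving out a patch or another gene minimum, 1415 stayed within the counting interval, 306 moved beyond it and 19, of 14 genes, changed side. Against the distant bins no deeper than the ring these were Aldh1a1 at 1.11, Lhcgr at 1.10, Nr5a1 at 1.05, Akr1c18 at 1.001, Mmrn1 at 1.60, Ccnd2 at 0.890 and Col1a2 at 0.874. At 2 steps alone they were Col1a2 at 0.866, Lamb1 at 0.957, Gja1 at 1.05 and Inha at 1.01, and with at most 2 rule-gene counts Col1a2 at 0.995, Gja1 at 1.04, Inha at 1.01 and Lhx8 at 0.815. Bex4 turned to 0.856 with bins of 42 units and 0.918 with the stricter oocyte bins, Igfbp5 to 1.30 with bins of 42 units and Postn to 1.08 with distant bins 6 or more steps away.

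No paired analysis was possible because each age had 1 library and the bins of a section carry no replicate number. The distances are in bins wider than a cell, so layers of a follicle thinner than 1 bin are not resolved. Genes under 50 counts in ring and distant bins, among them Amh and Fshr, were too sparse for a ratio. The 95% intervals leave out the spread between patches, which for Ccn2 ran from 10.3 to 1109 CPM.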
